A study of Homo sapiens with 15 samples.

Results

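The regions described here are stretches of open chromatin that were called in every library of the SETD2 knockout clone KO1 and in no library of the sister knockout clone KO2 or of the wild-type cells. They were chosen by measured values: overlapping peaks (1 bp or more) from the 15 libraries were joined, and a merged region was called KO1-private if it had a peak in all 3 KO1 libraries and in none of the 3 KO2 and 3 WT libraries. This gave 2255 regions of 295008, or 0.764%. That share is the outcome of the selection and is not itself a result. The same rule turned round gave 3774 KO2-private regions (all 3 KO2 libraries, no KO1 or WT library) and 7308 WT-private regions (all 3 WT libraries, no KO1 or KO2 library). The private rule did not use the 6 libraries of the rescue clones, so the tests below are limited to them. Their peaks did take part in the joining, which set the borders of the regions. A rescue peak that joined a KO1 peak to a KO2 or WT peak would thus have kept that region out.

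Open chromatin was mapped by ATAC-seq, which reads where a transposase can cut DNA, in RPTEC, human renal proximal tubule epithelial cells immortalised with hTERT and kept under G418. WT cells and the clones KO1, KO2, Rescue1 and Rescue2 gave 3 libraries each. KO1 and KO2 were separate clones with frameshifts on both alleles after CRISPR/Cas9 cutting in exon 3 of SETD2, and Rescue1 and Rescue2 were clones of knockout cells that carried a lentiviral full-length SETD2 under blasticidin selection. Every group other than WT was therefore 1 clone, its 3 libraries repeat that clone, and a difference between KO1 and KO2 cannot be told apart from a difference between any pair of clones. The sources do not state from which knockout clone the rescue clones were made; the peak names in all 6 rescue lists begin with the designation found in the KO2 lists, whereas the KO1 lists carry another. The lists held 197527 to 266011 peaks per library, and KO1 lists, with 204531 to 216563, lay inside that range. The kidney epithelial marker genes PAX8, PAX2, KRT8, KRT18, CDH1 and CDH6 each had a promoter peak in 15 of 15 libraries. The leukocyte gene PTPRC had none, but promoters of CDH5 and SYN1, which mark endothelium and neurons, were also called in all 15, so a promoter peak is no measure of expression here. The SETD2 promoter likewise had a peak in all 15 libraries, which says nothing about the knockout.

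SETD2 trimethylates lysine 36 of histone H3 along the bodies of transcribed genes, a mark known for keeping cryptic start sites within genes silent. ATAC-seq peaks mark promoters and the distal elements that regulate them, and distal elements are known to differ most between cell types. Many of the regions below fell in very long genes that are known from the nervous system. ROBO1 and ROBO2 encode receptors for SLIT ligands that steer axons, and SLIT2 and ROBO2 are also needed for placing the ureteric bud during kidney development. CNTNAP2 and NLGN4X encode cell adhesion proteins of axons and synapses, and NRG3 encodes a ligand of the ERBB4 receptor.

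Sequences around the summits of 6 of the strongest KO1-private regions are given to show what such elements look like. Each is the 200 bp on the summit of the strongest peak, read from hg38 on the plus strand, and capitals mark letters that match any of 21 motifs on either strand.
Between genes, chr12:61220430-61220629: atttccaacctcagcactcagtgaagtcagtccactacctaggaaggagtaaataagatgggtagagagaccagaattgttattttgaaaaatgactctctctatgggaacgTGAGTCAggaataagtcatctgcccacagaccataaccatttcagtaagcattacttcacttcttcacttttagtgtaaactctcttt
ROBO2 intron, chr3:76685921-76686120: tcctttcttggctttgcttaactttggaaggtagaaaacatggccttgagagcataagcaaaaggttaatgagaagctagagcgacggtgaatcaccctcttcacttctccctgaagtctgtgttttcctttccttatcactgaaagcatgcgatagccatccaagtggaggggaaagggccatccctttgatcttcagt
RAP1GAP2 intron, chr17:2982952-2983151: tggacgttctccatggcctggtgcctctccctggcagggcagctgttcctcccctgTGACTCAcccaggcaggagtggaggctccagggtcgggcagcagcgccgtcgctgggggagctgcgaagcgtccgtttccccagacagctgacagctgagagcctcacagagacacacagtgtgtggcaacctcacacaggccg
ROBO1 intron, chr3:78919126-78919325: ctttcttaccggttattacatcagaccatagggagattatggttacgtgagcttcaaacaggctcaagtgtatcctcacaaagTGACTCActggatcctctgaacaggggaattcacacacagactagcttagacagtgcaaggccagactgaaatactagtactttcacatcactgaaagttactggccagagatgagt
PDZRN3 intron, chr3:73614521-73614720: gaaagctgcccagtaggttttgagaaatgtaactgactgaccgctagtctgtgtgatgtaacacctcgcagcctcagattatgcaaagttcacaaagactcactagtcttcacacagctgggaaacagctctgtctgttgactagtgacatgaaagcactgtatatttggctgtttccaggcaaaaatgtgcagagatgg
Between genes near TAC1, chr7:97639110-97639309: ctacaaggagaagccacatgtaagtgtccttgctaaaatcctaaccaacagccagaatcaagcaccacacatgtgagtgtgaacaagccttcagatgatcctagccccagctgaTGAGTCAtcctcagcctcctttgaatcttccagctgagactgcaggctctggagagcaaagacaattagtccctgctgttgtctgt
The capitals in 4 of the 6 windows are the letters TGACTCA or their reverse complement, the site of AP-1, the FOS and JUN dimer. The windows in ROBO2 and PDZRN3 held no match to any of the 21 motifs.

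The strongest KO1-private region, ranked by the lowest of its 3 KO1 values, lay between genes at chr12:61220222-61220808, with TAFA2 as the nearest protein-coding gene at 487464 bp. Its fold enrichment, the pileup at the summit over the background of the same library, was 16.1 in KO1 replicate 1, 14.4 in replicate 2 and 16.8 in replicate 3. Fold enrichment is comparable only within a list, where these peaks stood at the 97.2nd, 95.9th and 96.2nd percentile. No rescue library had a peak there, and the nearest peak of any KO2 or WT library lay 298894 bp away. The region ranked next, chr17:2982823-2983191 in an intron of RAP1GAP2, which encodes a GTPase-activating protein for RAP1, behaved differently. Its KO1 percentiles were 99.8, 95.8 and 97.5, and it had a peak in all 3 Rescue2 libraries, at the lower percentiles of 36.0, 43.2 and 13.5, and in no Rescue1 library.

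Of the 10 strongest regions, 8 had no peak in any rescue library. The exceptions were the RAP1GAP2 region and chr3:78919071-78919346 in ROBO1. The ROBO1 region stood at percentiles 93.4, 98.0 and 98.2 in KO1, at 47.7, 52.4 and 39.9 in the Rescue1 libraries and at 28.9 in Rescue2 replicate 1. ROBO2 gave 2 of the 10, chr3:76685904-76686242 and chr3:76063078-76063472, and PDZRN3, which encodes a ubiquitin ligase, gave chr3:73614383-73614752. The others were chr13:66159465-66159826 and chr4:12555043-12555487 between genes, chr7:97639026-97639770 at 92313 bp from TAC1, and chr10:99983430-99983941 in an intron of DNMBP, which encodes a guanine nucleotide exchange factor of CDC42.

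These 10 are not typical. The median percentile rank of the 2255 regions was 36.1, 34.6 and 38.1 in the 3 KO1 libraries, and the median −log10 q was 5.77, 5.28 and 6.72 against 10.2, 9.33 and 10.8 for all peaks of the same libraries. Solved from fold enrichment and −log10 p, the median pileup at their summits was 10, 10 and 11 reads, against 16, 17 and 18 for 3000 sampled peaks of each library, where the lowest pileup over the genome-wide background was 5 reads. Most of the regions were thus weak peaks, and only 62 had a lowest percentile of 75 or more. They were also narrow, with a median of 206 bp, the KO2-private regions having 203 bp and the other regions called in all 3 KO1 libraries 394 bp. Sequencing depth is unknown from peak lists, and a missing peak means a signal under the calling threshold rather than closed chromatin. In a bulk library, fewer cells with an open site and less opening per cell cannot be told apart.

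How close the regions lay to the edge of the rule was counted without a test. Just outside it were 3739 regions with a peak in 2 of the 3 KO1 libraries and in no KO2 or WT library, and 2029 with a peak in all 3 KO1 libraries and in 1 of the 6 others. The single other library was a KO2 library for 1808 and a WT library for 221. When a KO1 library was left out of the rule, it had a peak in 59.6%, 66.5% and 67.8% (replicates 1, 2 and 3) of the regions that the other 8 libraries selected. A KO2 library left out had a peak in 14.3%, 12.7% and 32.8%, and a WT library in 4.73%, 2.17% and 2.55%. A left-out KO1 library was scored on regions that its sister libraries had to hold, and a left-out KO2 or WT library on regions that its sisters had to lack. The higher KO1 shares therefore follow largely from the rule. KO2 replicate 3, the longest list of the 9 with 255339 peaks, had a larger share than the other KO2 libraries. By comparison, 14118 regions had a peak in all KO1 and all KO2 libraries and in no WT library, and 433 in all KO1 and all WT libraries and in no KO2 library.

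A KO1-private region seldom had a peak in a rescue library. The share with a peak was 10.95%, 9.93% and 10.5% in Rescue1 replicates 1, 2 and 3, and 14.5%, 11.4% and 7.45% in Rescue2 replicates 1, 2 and 3, a mean of 10.8% ± 2.27 (SD, n = 6). KO2-private regions had a peak in 46.8%, 43.0% and 45.6% of cases in Rescue1 and in 65.6%, 56.2% and 48.6% in Rescue2, a mean of 51.0% ± 8.44 (SD, n = 6). The ranges did not overlap, and every rescue library had a peak in a smaller share of KO1-private than of KO2-private regions.

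**Figure D1:**
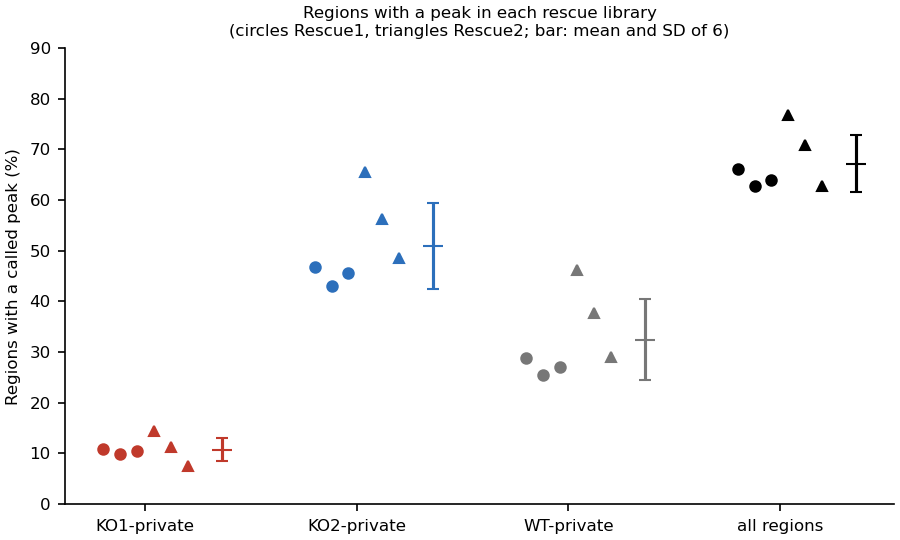
Percent of regions with a called peak in each of 6 rescue libraries (y axis), for KO1-private, KO2-private and WT-private regions and for all merged regions; circles are Rescue1, triangles Rescue2, and the bar is the mean and SD of 6. KO1-private regions lie between 7.45% and 14.5%, below the other sets in every library.

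Within a rescue library, the KO1-private share minus the KO2-private share ranged from -51.1 to -33.1 points, with a mean of -40.2 points (SD 6.89, n = 6, exact two-sided sign-flip permutation test, p = 0.031, adjusted p = 0.047 over 3 tests). This p is the smallest that 6 libraries can give. WT-private regions had a mean of 32.4% ± 7.98 (SD, n = 6), and the KO1-private share was lower in 6 of 6 libraries (mean difference -21.7 points, SD 6.34, exact sign-flip permutation test, p = 0.031, adjusted p = 0.047). The 6 libraries came from 2 rescue clones, so these p-values measure the spread between libraries, which may be technical, and not between clones. Rescue2 and Rescue1 had a mean of 11.1% ± 3.51 and 10.5% ± 0.510 (SD, n = 3 each), and their difference of 0.64 points was smaller than the spread between Rescue2 libraries (exact permutation test, p = 0.7, adjusted p = 0.7, smallest possible p 0.1). The peak names of the rescue lists carry the designation of KO2 and not of KO1, as given above, and the part of clone origin in the low share was not tested.

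Of the 2255 regions, 1700 (75.4%) had no peak in any rescue library. Among all merged regions this was so for 12.6%, and among KO2-private regions for 23.1%. At the other end, 52 KO1-private regions (2.31%) had a peak in all 6 rescue libraries, which held for 49.3% of all regions and 25.04% of KO2-private regions. A further 31 (1.37%) had a peak in all 3 Rescue1 and no Rescue2 library, and 26 (1.15%) the reverse. Among all merged regions these shares were 0.732% and 2.47%. Where a rescue library did have a peak at a KO1-private region it was weak, at a median percentile of 18.99 (Rescue2 replicate 3) to 27.7 (Rescue1 replicate 3) of its own list.

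The share with a rescue peak went down with the strength of the KO1 peaks. Its mean was 12.9% ± 3.15 (SD, n = 6) for the 1127 regions with a lowest percentile under 25, 9.07% ± 1.55 for the 818 between 25 and 50, 8.00% ± 2.27 for the 248 between 50 and 75, and 5.65% ± 3.50 for the 62 above. KO2-private regions went the other way, from 46.6% ± 8.00 in the lowest bin (2457 regions) to 78.9% ± 11.3 in the highest (53 regions), and WT-private regions from 28.9% ± 7.61 to 53.9% ± 6.34. Among regions with a lowest percentile of at least 50, the KO1-private minus KO2-private difference was -62.3 points (exact sign-flip permutation test, p = 0.031, adjusted p = 0.047). The trend across the bins itself was not tested.

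**Figure D2:**
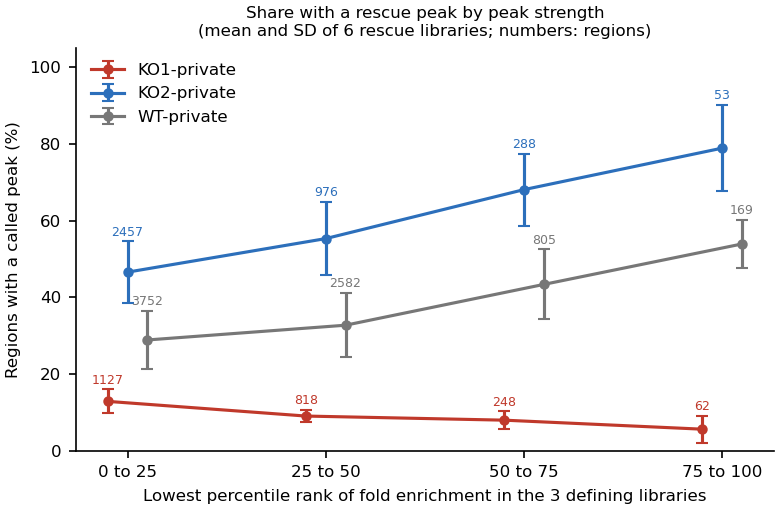
Mean share of regions with a called peak over 6 rescue libraries (y axis, percent, error bars SD) against the lowest percentile rank of fold enrichment in the 3 libraries that define a set (x axis, 4 bins); small numbers give the regions in a bin. The KO1-private line goes from 12.9% to 5.65%, whereas the KO2-private line goes from 46.6% to 78.9%.

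KO1-private regions were mostly distal. Between genes of any kind lay 889 (39.4%), in introns of protein-coding genes 756 (33.5%), in genes that do not code for protein 428 (18.98%), at promoters of protein-coding genes 125 (5.54%) and in their exons 57 (2.53%). A promoter was taken as 1000 bp on each side of a transcript start in GENCODE 44. The other regions called in all 3 KO1 libraries were at promoters in 16.9% and between genes in 28.0%, and KO2-private regions in 6.84% and 33.2%. KO1-private regions thus had the lowest promoter share and the highest share between genes of the 3 private sets, the WT-private values being 9.30% and 30.1%. These shares are descriptions, since regions are not replicates. Rescue libraries had a peak in 16.4% ± 2.57 (SD, n = 6) of the KO1-private promoter regions and in 8.70% ± 1.84 of those between genes. The median distance to the nearest KO2 or WT peak was 5722 bp; 15.8% of the regions had such a peak within 500 bp, and 40.7% had none within 10000 bp.

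The regions were not spread evenly. Runs of 4 or more KO1-private regions, each within 50000 bp of the next, numbered 53 and held 300 regions (13.3%), whereas 6.04% of KO2-private and 8.99% of WT-private regions lay in runs of their own kind. Other measures did not set KO1 apart: the longest run held 14 KO1-private, 27 KO2-private and 24 WT-private regions, and 66.7%, 73.9% and 59.4% of the 3 sets had no other region of their set within 50000 bp. With the 150000 strongest peaks of each library, an alternative chosen after seeing the data, runs held 6.49% of KO1-private, 5.26% of KO2-private and 8.00% of WT-private regions. The 4 runs with most members, 14, 14, 14 and 11, lay in CNTNAP2, ROBO1, PDZRN3 and ROBO2, the PDZRN3 run reaching past the start of its gene. Runs in NRG3, in STS and in a stretch without protein-coding genes shared the next place with 8 members each.

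The CNTNAP2 run, chr7:147362087-147536143, held 16 merged regions, 14 of them KO1-private. The 3 KO1 libraries had a peak in 15, 16 and 15 of the 16, and each of the 3 WT, 3 KO2 and 6 rescue libraries had a peak in 0. Over 174 kb there was thus no called region outside KO1. The NRG3 run, chr10:82150607-82288958, was alike, with a KO1 peak in 11, 9 and 10 of 11 regions, 8 of them KO1-private, and 0 in the other 12 libraries. In every run the zeros of WT and KO2 libraries at KO1-private regions were set by the rule. Only the rescue libraries and the regions that were not KO1-private were free to differ.

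In the ROBO2 run, chr3:75978821-76162596, the KO1 libraries had a peak in 14, 15 and 14 of 15 regions. WT replicate 1 and KO2 replicate 3 had 1 each, and the other 10 libraries had 0. In the ROBO1 run, chr3:78846743-79032957, the KO1 libraries had 23, 22 and 20 of 25, the KO2 libraries 1 each, the WT libraries 1, 1 and 0, the Rescue1 libraries 2, 3 and 2 and the Rescue2 libraries 3, 1 and 1. Each rescue library thus had a peak in at least 1 of the 25 regions, but in at most 2 of the 14 KO1-private regions. The PDZRN3 run, chr3:73399242-73654219, held the most peaks outside KO1 of these runs. KO1 had a peak in 26, 24 and 27 of 29 regions, KO2 in 5, 6 and 7, WT in 2, 1 and 1, Rescue1 in 4, 4 and 3 and Rescue2 in 4, 2 and 2.

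**Figure D3:**
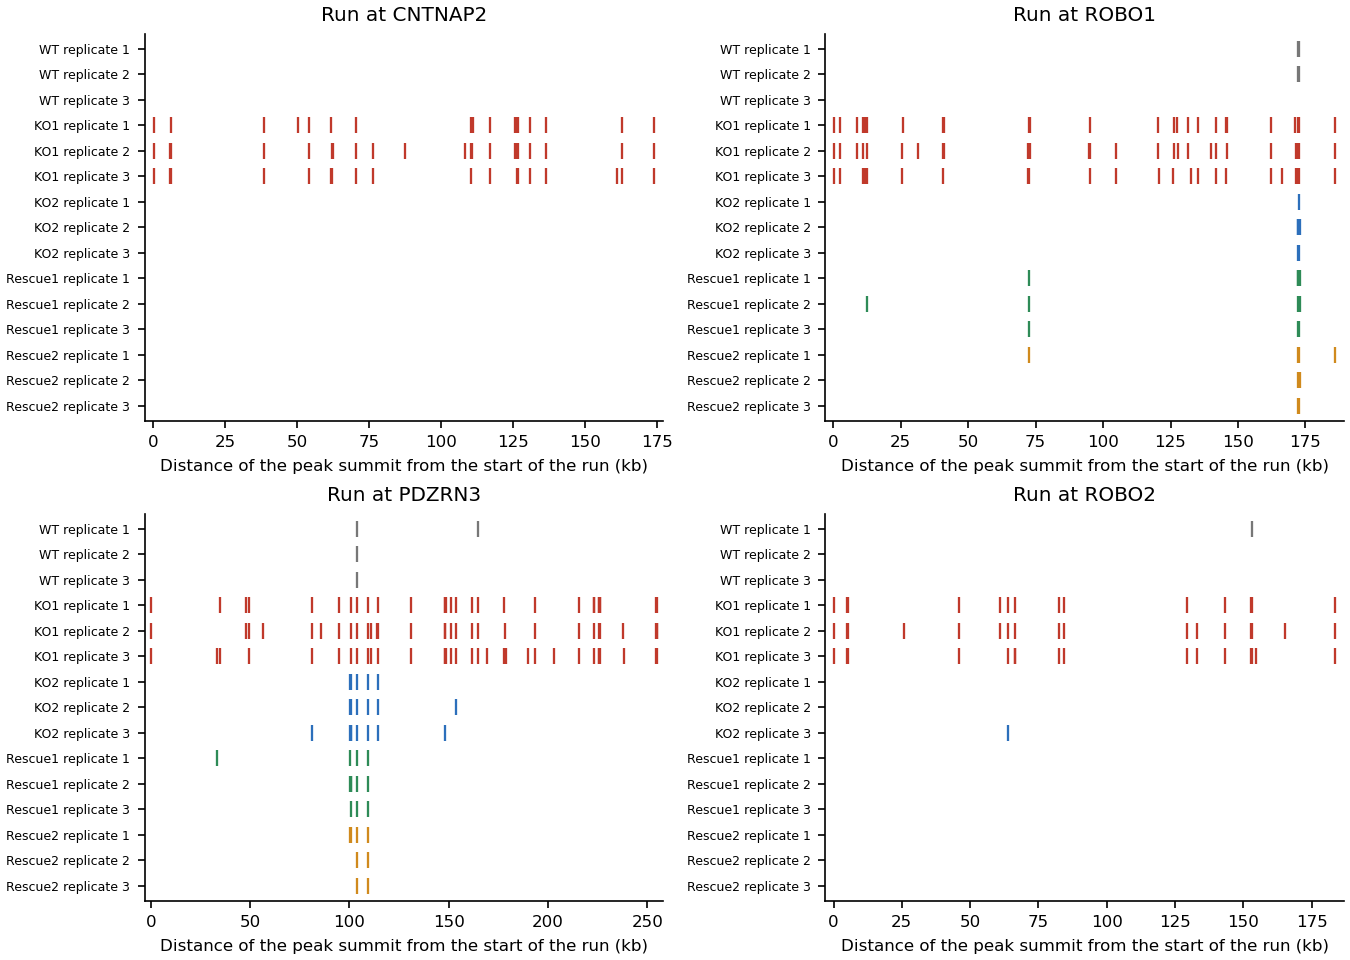
Summits of called peaks in 15 libraries (rows) along the runs of KO1-private regions in CNTNAP2, ROBO1, PDZRN3 and ROBO2; the x axis is the distance from the start of the run in kb and each tick is 1 peak. The CNTNAP2 panel has ticks in the 3 KO1 rows alone, and the PDZRN3 panel shows a group of peaks shared with KO2 and rescue libraries. Absence from the WT and KO2 rows at KO1-private regions was set by the rule.

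Members of runs were shared by rescue libraries in 1.89% ± 0.584 of cases (SD, n = 6), and 281 of the 300 (93.7%) had no rescue peak. The 1505 regions with no other KO1-private region within 50000 bp had a rescue peak in 14.0% ± 3.07, and 68.4% of them had none. Members of runs were also stronger, with a median lowest percentile of 41.7 against 17.9 for those alone, and the part of strength in this difference was not tested. In the run in STS, which encodes steroid sulfatase, at chrX:7690948-7834442, all 8 regions were KO1-private and the only peak outside KO1 was in Rescue2 replicate 3. A run of 8 of 8 at chr3:166444318-166663454 had no protein-coding gene within 576388 bp. The run across MALRD1 and PLXDC2, chr10:19683954-19847538, stood apart, since its 7 KO1-private regions had a peak in 3, 4 and 4 cases in Rescue1 and in 0, 0 and 0 in Rescue2.

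Chromosome 3 carried 288 KO1-private regions, 12.8% of them, although it held 214 (5.67%) of the KO2-private regions. Of its 19854 merged regions 1.45% were KO1-private, the highest value among the autosomes. Chromosome Y had a higher share, with 27 of 1481 regions (1.82%), chromosome X had 104 (1.30%), and chromosome 22 was lowest with 12 (0.246%). The share of all peaks that fell on chromosome 3 was 6.80% to 6.81% in KO1 libraries, 6.61% to 6.67% in KO2, 6.61% to 6.63% in WT and 6.52% to 6.58% in the rescue libraries. KO1 values lay above all others, by a small amount.

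**Figure D4:**
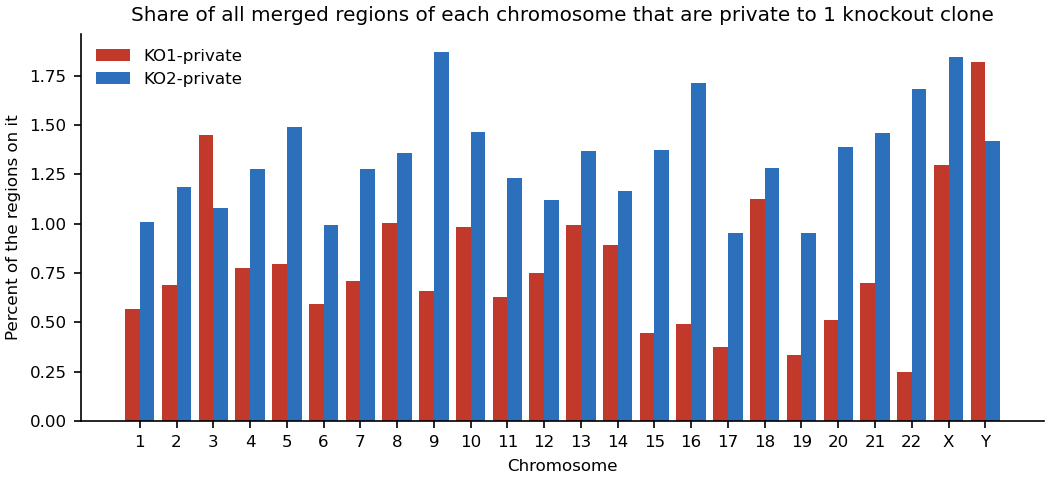
Percent of the merged regions of each chromosome (x axis, 1 to 22, X and Y) that are KO1-private or KO2-private (y axis, linear, from 0). The KO1-private bar exceeds the KO2-private bar on chromosome 3, at 1.45% against 1.08%, and on chromosome Y, at 1.82% against 1.42%.

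The 5 Mb window with most KO1-private regions was on chromosome 3. Between 75 and 80 Mb, which holds ROBO2 and ROBO1, 60 of 180 merged regions (33.3%) were KO1-private, 1 was KO2-private and 2 were WT-private. Without this window, 228 of the 19674 other regions of chromosome 3 (1.16%) were KO1-private, and 165 to 170 Mb held 27 of them and 70 to 75 Mb 22. The KO1 libraries had a peak in 139, 146 and 146 regions of this window, the WT libraries in 39, 36 and 31, the KO2 libraries in 53, 53 and 62, the Rescue1 libraries in 39, 43 and 39 and the Rescue2 libraries in 66, 56 and 50. The KO1 values exceeded all others by more than the spread within any group, in a window found by the members themselves. By the rule, its 60 KO1-private regions count in every KO1 library and in no WT or KO2 library. The excess of KO1 over WT and KO2 was thus set in part by the selection. Copy number in the clones was not analysed here, and called peaks do not give it. The 13 regions there that had a peak in all 15 libraries had a median percentile of 66.8, 65.6 and 69.8 in KO1, 64.1, 50.5 and 64.8 in WT, 66.9, 65.2 and 65.1 in KO2, 66.3, 73.0 and 65.1 in Rescue1 and 77.8, 77.2 and 63.9 in Rescue2. The KO1 values lay above all 3 WT values and overlapped those of KO2 and of both rescue clones.

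The window that followed was 80 to 85 Mb of chromosome 10, around NRG3, with 32 of 308 regions. KO1 libraries had a peak there in 213 to 231 regions, KO2 in 173 to 200, WT in 123 to 133, Rescue1 in 148 to 161 and Rescue2 in 146 to 183. By the rule, the 32 KO1-private regions count in every KO1 library and in no KO2 or WT library. The gaps from KO1 to KO2 and WT thus hold what the selection set and are not read as a result. Chromosome 3 also gave the window from 85 to 90 Mb, with 21 of 128 regions KO1-private and no region private to KO2 or WT; it holds EPHA3, an ephrin receptor. Over 578 windows of 5 Mb (chromosome 8 left out), the median was 3 KO1-private regions, and 70 windows had none.

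By gene, 859 of 20007 protein-coding genes (4.29%) had a KO1-private region from 10000 bp before to 10000 bp after the gene, 107 had at least 2 and 19 at least 5. ROBO2 had most, with 31 of its 55 merged regions, followed by ROBO1 with 26 of 73. CNTNAP2 had 14 of 35, STS 14 of 31, PDZRN3 12 of 27 and NRG3 12 of 47. IL1RAPL1, which encodes a synaptic receptor of the interleukin-1 receptor family, had 9 of 28, and NLGN4X, a postsynaptic adhesion gene, had 8 of 11. MALRD1, known for regulating the intestinal hormone FGF19, had 8 of 29, and TBL1Y on chromosome Y had 7 of 8. EPHA3, KCNH8, GALNT13 and DMD also had 7, and TBL1Y was taken for its shorter locus. Of these 10 genes, PDZRN3 had 1 KO2-private region and the others had 0.

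The rescue libraries differed between these genes. None of the 31 ROBO2 regions, the 14 CNTNAP2 regions, the 12 PDZRN3 regions, the 12 NRG3 regions, the 9 IL1RAPL1 regions or the 8 NLGN4X regions had a peak in any of the 6. Of the 26 ROBO1 regions, 1, 3 and 1 had a peak in the Rescue1 libraries and 2, 0 and 0 in the Rescue2 libraries. Of the 14 STS regions, 1 had a peak in Rescue2 replicate 3 and none in the other rescue libraries. MALRD1 had a peak in 5, 6 and 6 of its 8 regions in Rescue1 and in 1, 0 and 0 in Rescue2. These 8 regions are neighbours at the same gene and not separate cases. Of all merged regions, 0.732% had a peak in all 3 Rescue1 and no Rescue2 library, and 2.47% the reverse. The 7 TBL1Y regions had a peak in 0, 0 and 0 cases in Rescue1 and in 2, 1 and 0 in Rescue2.

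A gene with a long locus can hold more regions. Of the 355 genes with a locus of 500 kb or more (flanks included), 37.5% had a KO1-private region, against 1.42% of the 10497 genes under 50 kb. The gene lists are therefore given with their median locus. Of 65 neuronal adhesion genes, with a median locus of 410 kb, 19 (29.2%) had a KO1-private region and 11 had at least 2. Among all genes the share with at least 1 was 15.2% at 200 to 500 kb and 37.5% at 500 kb or more. Several of the 19, such as CNTNAP2 and CTNNA3, had a locus over 500 kb. Besides CNTNAP2 and NLGN4X, the contactin gene CNTN5 and OPCML had 3 each, and CADM2, CNTNAP4, CTNNA3, CTNND2, NCAM1 and NTM had 2 each. Of 55 axon guidance genes, with a median locus of 176 kb, 13 (23.6%) had at least 1, the value for all genes of 100 to 200 kb being 7.60%. Loci of 500 kb or more were also among the 13, and the part of locus length was not tested for either list. Besides ROBO2 and ROBO1 these were led by EPHA3 with 7, the netrin receptor gene DCC with 5 and EPHA6 with 2. KO2-private regions were found at 16 of the 55 axon guidance genes and 25 of the 65 neuronal adhesion genes, and at 2076 of all 20007 genes, against 859 for KO1. The regions at the axon guidance and neuronal adhesion genes summed to 24 and 47 for KO2 and to 79 and 52 for KO1. Of the 79, 31 were at ROBO2 and 26 at ROBO1, both between 75 and 80 Mb of chromosome 3. The axon guidance sum for KO1 thus rested mostly on 1 stretch rather than on the list as a whole.

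In lists closer to the biology of the tubule, no gene had more than 2 KO1-private regions. At least 1 was found at 6 of 45 collagen and laminin genes (13.3%, with 2 at COL12A1, a fibril-associated collagen), at 4 of 36 epithelial junction genes (11.1%), at 3 of 31 kidney development factors (9.68%) and at 1 of 31 proximal tubule transport genes. The median loci of the first 3 lists were 167, 63.1 and 34.8 kb, and the shares among all genes of 100 to 200, 50 to 100 and under 50 kb were 7.60%, 3.10% and 1.42%. The list of 30 mesenchymal and epithelial-to-mesenchymal transition genes had 1 (3.33%), the 42 cytokine and receptor genes 2, the 43 interferon response genes found by symbol 2 and the 59 WNT pathway genes 3. The proximal tubule list and the 4 after it had shares of 3.23% to 5.08%, near the 4.29% of all protein-coding genes. Their median loci, in the order given, were 76.6, 69.15, 32.5, 40.6 and 63.9 kb. Beside genes of like length, the cytokine (4.76%) and interferon (4.65%) shares, each from 2 genes, lay above the 1.42% under 50 kb. The WNT share of 5.08% lay above the 3.10% of 50 to 100 kb, and the other 2 lay near it. Of 18 loci that the study examined by name, 1 (5.56%) had a KO1-private region, near the 4.29% of all protein-coding genes. The 17 without one included SETD2, SOX2, POU2F2, PRRX1, PDGFRA, CDH1, IL6, WNT5A, MMP2 and CD44.

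The 125 promoter regions lay at 121 genes. The strongest was chr3:75906477-75906925 at the start of ROBO2, at percentiles 83.6, 91.5 and 95.4 in KO1 and with no peak in any rescue library. No KO2 or WT peak lay within 120519 bp of it. SLC7A8, a transporter of neutral amino acids on the basolateral side of the proximal tubule, had a region at chr14:23154270-23154629 (percentiles 70.6, 68.9 and 63.9), but there a KO2 or WT peak lay 642 bp away. TAC1, which encodes the substance P precursor, had chr7:97733410-97734105 (52.4, 56.9 and 58.1). IL1RAPL1, PDZRN3, TBL1Y and TCAF1 also had a promoter region with no rescue peak. The olfactory receptor gene OR2T10 was the exception among the 10, with a peak at chr1:248596712-248596927 in Rescue1 replicates 1 and 2 and in Rescue2 replicate 2. A promoter region is a called peak and no measure of transcription.

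The windows of 200 bp on the summits were poor in G and C. Their median GC content was 43.5%, against 48.0% in KO2-private, 47.5% in WT-private and 48.5% in the other regions called in all 3 KO1 libraries, and 25.1% of them were under 40% GC, against 9.78% of the KO2-private windows. Of 21 motifs searched on both strands, at least 1 was found in 1385 windows (61.4%), close to the 60.4% of all regions.

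AP-1 (TGACTCA) was the most frequent, in 445 windows (19.7%), but was found in 26.6% of KO2-private windows, 26.7% of the other KO1 regions, 23.1% of all regions and 13.1% of WT-private windows. The GC-rich KLF and SP motif (GGGCGGGG) was found in 1.24% against 4.66% of the other KO1 regions, and the CTCF motif in 0.754% against 2.77%. The other private sets were low too, with 1.19% (KO2-private) and 1.92% (WT-private) for KLF and SP and 0.185% and 0.794% for CTCF. Several motifs were more frequent in KO1-private than in KO2-private windows and in all regions. FOX (TGTTTAC) was found in 6.25%, 3.63% and 3.596% of the 3 sets in that order, C/EBP (TTGCNCAA) in 5.63%, 2.78% and 3.31%, and SOX (CATTGTT) in 5.50%, 3.34% and 3.55%. The PRRX-type homeobox motif (TAATTA) was found in 4.88%, 2.36% and 3.63%, the POU octamer (ATGCAAAT) in 2.53%, 1.46% and 1.39%, RUNX (TGTGGTT) in 11.3%, 9.96% and 8.36%, and TEAD (ACATTCC) in 5.81%, 3.31% and 4.795%. In WT-private windows TEAD (8.37%) and the PRRX-type homeobox motif (5.32%) were more frequent than in KO1-private windows, and the other 5 were less frequent, at 2.15% for FOX, 2.78% for C/EBP, 3.56% for SOX, 0.807% for the POU octamer and 7.13% for RUNX.

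**Figure D5:**
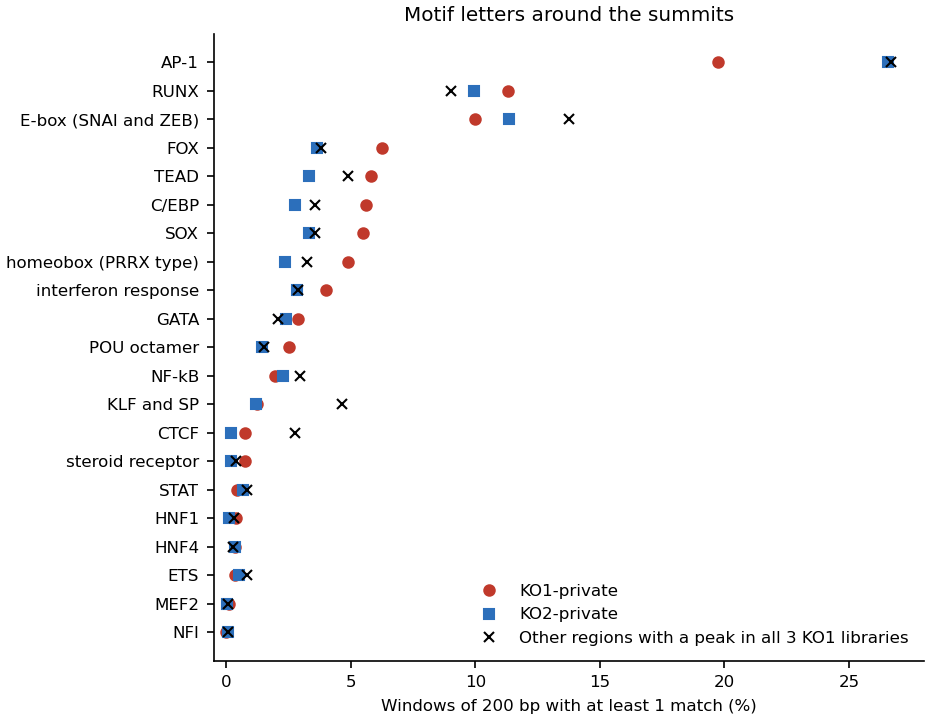
Percent of 200 bp summit windows with at least 1 match (x axis) for 21 motifs (y axis) in KO1-private regions (circles), KO2-private regions (squares) and other regions with a peak in all 3 KO1 libraries (crosses). AP-1 lies at 19.7% in KO1-private regions and at 26.6% and 26.7% in the others, while FOX, C/EBP and SOX lie to the right in KO1-private regions.

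In 3 bins of GC content that each held about equally many KO1-private windows, AP-1 stayed lower throughout: 22.4%, 19.8% and 17.2% of KO1-private windows from the lowest to the highest bin, against 32.5%, 28.2% and 24.5% of KO2-private windows. FOX stayed higher throughout, with 7.77%, 6.64% and 4.46% against 3.48%, 4.37% and 3.34%. The POU octamer did not: it was found in 5.61% against 3.07% in the lowest bin but in 1.504% against 1.69% and 0.787% against 1.01% in the others. RUNX was found in 15.8% against 12.5% and 12.4% against 9.72% in the lower bins but in 6.04% against 9.53% in the highest. The PRRX-type homeobox motif stayed above KO2-private windows in each bin. Against all regions it was lower in the lowest (7.91% against 8.24%) and middle bin (4.51% against 4.69%) but higher in the highest (2.49% against 1.73%). TEAD was above all regions in the lower bins but below them in the highest (3.54% against 4.09%). C/EBP and FOX stayed above all regions in each bin. SOX was above all regions in the lower bins but about equal to them in the highest (2.23% against 2.21%). Matches of different motifs rarely shared letters, no pair doing so in more than 6 windows. A match describes letters of the reference and not a bound factor.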

How the data were processed

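ATAC-seq peak lists of 15 RPTEC libraries were used, 3 for each of 5 groups taken from the labels. The authors aligned reads to hg38 with BWA and called peaks with MACS2 2.2.7.1 in each library. Each deposited list holds the interval, a score, the fold enrichment as a ratio, −log10 p, −log10 q and the summit of every peak; the score was not used. Control tracks and removal of duplicates are not given in the sources used here. No read counts were used, so depth is unknown and all comparisons rest on called peaks.

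Peaks on chromosomes 1 to 22, X and Y that shared 1 bp were merged, and regions with a peak in at least 2 libraries were kept. No peak lay beyond a chromosome end of the reference. Genes came from GENCODE 44. Percentile ranks of fold enrichment are within a list. Pileups were solved from fold enrichment and −log10 p, with an answer for 100% of 3000 sampled peaks per library. Tests were exact permutation tests over rescue libraries with Benjamini-Hochberg adjustment over 3 tests at 0.05, and the functions were tested on simulated data. The regions and gene lists were chosen with earlier results of these data known. Regions were named by the lowest of 3 KO1 ranks (10 strongest, 10 strongest at promoters), genes by most KO1-private regions (10, ties by regions per length, and list genes with at least 2), and runs by size (5, NRG3 being 1 of 3 tied runs); the STS, MALRD1 and gene-free runs, EPHA3 and the windows of 5 Mb were chosen after their values were seen. Nothing on chromosome 8 is named. Some genes that these rules select are not reported here. Alternatives were other peak thresholds, overlaps, region definitions, promoter and window sizes and leaving out each library. Scripts used Python 3.11.15, numpy 2.4.6, pandas 2.3.3 and scipy 1.17.1.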

Additional observations from a re-analysis of the deposited data

How the results depend on the processing

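Both differences from the other private sets kept their sign and passed the test under every alternative that used all 6 rescue libraries. With 1 rescue library left out the smallest possible p is 0.0625, so no such value could pass; over all libraries left out in turn the differences ranged from -41.6 to -29.4 points (KO2-private) and from -22.9 to -18.3 points (WT-private). Rescue2 minus Rescue1 changed sign to -0.48 points with −log10 q of at least 3 in every library, to -2.66 points with the 150000 strongest peaks of each library, and ranged from -1.05 (without Rescue2 replicate 1) to 2.45 points over libraries left out; it passed no test. Replicate numbers are not stated to mark a shared batch, and same-numbered libraries did not deviate together (correlations -0.0137 to 0.0223 over 30 pairs), so pairing was an alternative: with a replicate block the difference was 0.64 points (exact sign-flip permutation test, p = 0.75, smallest possible p 0.25).

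The number of regions ranged from 2305 to 3786 with a library left out of the rule, and passed 1.5 times the reported number without KO1 replicate 1 (3786) and KO1 replicate 2 (3390), where fewer libraries had to hold a peak. The mean rescue share was 13.3% where a peak had to cover 50% of a region, 7.53% for regions with a lowest percentile of at least 50, and ranged from 10.0% to 16.2% over libraries left out, the highest being without KO2 replicate 3. The promoter share was 6.68% with the 150000 strongest peaks, 8.29% with promoters of 2500 bp on each side, 9.58% with transcript starts of all genes, and 5.36% to 6.67% over libraries left out. The share between genes was 36.2% with the 150000 strongest peaks and 36.6% to 39.6% over libraries left out. A motif was found in 44.1% of 100 bp windows. Added after the data were seen, the same alternatives for chromosome 3, runs and 5 genes left 83 values near the reported ones and moved 15; with the 150000 strongest peaks, runs held 6.49% of the regions, ROBO2 20, CNTNAP2 9 and STS 8. The cause was not tested. The rule that a peak may also lie at least 50% inside a region was met by every peak by construction, so only coverage of the region was varied.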

Other observations

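Some other loci also held several KO1-private regions, and these were picked after their values were seen; 3 of the genes tied with TBL1Y. KCNH8, a potassium channel gene, had 7 of 13 merged regions KO1-private, GALNT13, a glycosyltransferase gene, 7 of 21, and DMD, which encodes dystrophin, 7 of 61, with no peak in any of the 6 rescue libraries at these regions. A run at IGF1, the growth factor gene, chr12:102326606-102439242, held 15 regions, 7 of them KO1-private; KO1 libraries had a peak in 14, 14 and 14 of the 15, KO2 libraries in 5, 2 and 4, Rescue2 libraries in 2, 0 and 0, and WT and Rescue1 libraries in 0.

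MYT1L, which encodes a neuronal transcription factor, had 5 KO1-private regions. Of these, 3, 2 and 2 had a peak in the Rescue2 libraries and 0, 0 and 0 in Rescue1, the opposite order to MALRD1, where 1, 0 and 0 of 8 had a peak in Rescue2 and 5, 6 and 6 in Rescue1. These differences between the rescue clones were not tested.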
